A study of Homo sapiens with 8 samples.

Results

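The genes examined here encode the machinery that copies DNA in S phase. The 46 genes were taken from a list of replication genes by their current symbols, and all 46 were found among the 18693 genes with coding RefSeq entries in the expression tables. They fall into 11 sub-complexes or functional groups and lie on 19 chromosomes. RNA was sequenced from A498 and 786-O cells, 2 established cell lines of clear cell renal cell carcinoma, after siRNA knockdown of the long intergenic non-coding RNA SLINKY. Of the 4 libraries of a line, 2 came from cells given a control siRNA with no target (NTC), and the others from cells given siRNA1 or siRNA2 against SLINKY. There were thus 8 libraries, with a single library for each SLINKY siRNA in each line. All cells received siRNA at 50 nM by lipid transfection. The labels give 16 hr for the transfection and the study's methods give RNA isolation at 24 hr. The labels describe every siRNA as a pool, whereas the methods describe the SLINKY siRNAs as separate custom designs. A498 cells were grown in DMEM and 786-O cells in RPMI-1640, both with fetal bovine serum, so the cell line and its medium cannot be told apart. Nothing states that the NTC libraries came from separate cultures, and p-values measure the spread between these libraries only.

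Replication begins with the loading of the MCM2-7 helicase onto origins. The origin recognition complex marks the origin, CDC6 and CDT1 bring in the helicase, and geminin (GMNN) holds CDT1 in check once S phase has begun. CDC45 and the GINS complex then turn the loaded helicase into its active form, primase and polymerase alpha lay down primers, and polymerases epsilon and delta extend the leading and lagging strands on the sliding clamp PCNA. Many of these genes are transcribed under E2F factors and peak around the G1/S transition. In bulk RNA, more cells in S phase and more RNA per cell cannot be told apart.

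Levels are FPKM, fragments scaled to transcript length and to the mapped fragments of the library, as the authors' Cufflinks run gave them, summed over the coding RefSeq entries of each gene. Because FPKM is per length, levels of different genes are set beside each other, but only roughly. A level also depends on the annotation and on how reads are divided among entries. Entries with the interval of a single read gave the relative depth of the libraries, which spanned 2.57-fold from the shallowest, A498 with siRNA2, to the deepest, the second 786-O NTC library. Factors from the median ratio of all genes lay between 0.978 and 1.01. PAX8, a transcription factor of renal epithelium, stood at 39.2 to 48.1 FPKM in all 8 libraries, and the summed level of 8 blood and endothelial markers was at most 0.732 FPKM, with PTPRC and CD3E listed at 0. Of 10 kidney cancer cell markers, 9 had a value, and CA9, a gene of the hypoxia response, was at 0 to 0.559 FPKM. SLINKY itself was at 14.6 and 16.1 FPKM in the A498 NTC libraries against 1.64 with siRNA1 and 3.01 with siRNA2. In 786-O it was at 1.45 and 1.39 FPKM in the NTC libraries against 0.0569 with siRNA1 and 0.594 with siRNA2. Every siRNA library thus lay below both NTC libraries of its line, with a mean log2 difference of -2.47 (two-sided exact permutation test within cell lines, p = 0.0556, the smallest that its 36 arrangements allow).

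All 46 replication genes passed the minimum of a mean of 1 FPKM over the libraries and were tested. Their summed level was 1562 ± 40.4 FPKM in A498 and 2040.4 ± 57.1 FPKM in 786-O (SD, n = 4 libraries of each line, siRNA libraries included). The levels of single genes ran over more than 2 orders of magnitude. TK1, the thymidine kinase of nucleotide salvage, was highest in both lines with 218 ± 12.2 FPKM in A498 and 193 ± 12.8 FPKM in 786-O (SD, n = 4). POLD3, the third subunit of polymerase delta, was lowest in both on its coding entry. That entry shares its locus with a non-coding one, and the rank does not hold for their sum. The 5 highest genes held 46.7% of the summed level in A498 and 41.8% in 786-O. The plot of levels shows each gene in each library.

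**Figure D1:**
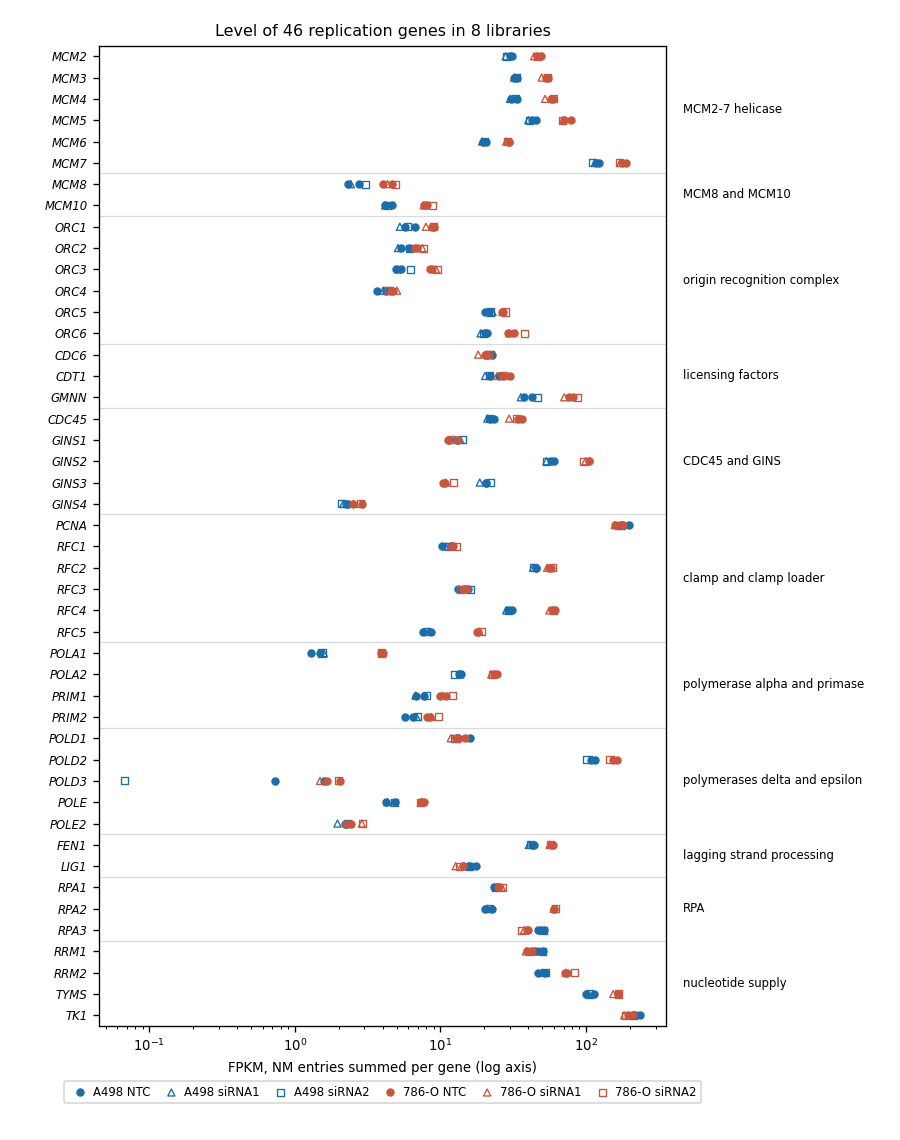
FPKM of the 46 replication genes (log axis) in the 8 libraries, grouped by sub-complex, with filled circles for NTC, triangles for siRNA1 and squares for siRNA2, in blue for A498 and red for 786-O. Most red symbols lie to the right of the blue ones of the same gene, GINS3 and RPA3 lie the other way, and POLD3 of A498 with siRNA1 (9.34e-06 FPKM) lies left of the axis and is not drawn.

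Promoter sequence was read for these genes because E2F factors are known to act on many of them. RefSeq promoter windows of the GRCh38.p14 build, from 250 bases before to 50 bases after each annotated start, were found for 40 of the 46 genes. No window was held for MCM4, MCM5, GINS4, POLD3, RPA2 and RPA3. The words TTTGGCGC, TTTCGCGC, TTTCCCGC and TTTGCCGC, 4 forms of the E2F binding motif, were searched on both strands, and overlapping matches were each counted. At least 1 word was in the window of 20 of the 40 genes (50.0%), against 602 of 8691 tested genes with a window (6.93%). Counted by window, these were 20 of 51 (39.2%) for the replication genes against 3.31% of all 35116 windows. The word CCAAT, a common promoter element, was in 25 of the 40 genes (62.5%) against 43.6% of the tested genes. A match is a description of these letters and not a binding site.

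The upstream sequence of 6 genes with a word is shown. All 6 are named in the comparison of the cell lines, and GMNN, CDT1, GINS2 and PCNA also in those of the siRNAs. The stretches end 1 base before the annotated start, run 5′ to 3′ on the strand of the gene, and carry the E2F words in capitals. GMNN is at chr6:24775263-24775412 on the plus strand, CDT1 at chr16:88803639-88803788 on the plus strand and MCM6 at chr2:135876444-135876693 on the minus strand. GINS2 is at chr16:85688955-85689104 on the minus strand, POLA1 at chrX:24693768-24693917 on the plus strand and PCNA at chr20:5126623-5126772 on the minus strand. In MCM6 each of the 2 capital stretches holds 2 overlapping words, 1 on each strand.
GMNN: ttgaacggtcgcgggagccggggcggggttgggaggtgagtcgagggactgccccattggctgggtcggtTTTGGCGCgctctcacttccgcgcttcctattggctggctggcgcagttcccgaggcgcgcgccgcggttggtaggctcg
CDT1: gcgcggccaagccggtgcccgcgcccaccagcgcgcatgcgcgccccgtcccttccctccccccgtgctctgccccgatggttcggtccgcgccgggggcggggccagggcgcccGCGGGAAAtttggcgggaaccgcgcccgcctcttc
MCM6: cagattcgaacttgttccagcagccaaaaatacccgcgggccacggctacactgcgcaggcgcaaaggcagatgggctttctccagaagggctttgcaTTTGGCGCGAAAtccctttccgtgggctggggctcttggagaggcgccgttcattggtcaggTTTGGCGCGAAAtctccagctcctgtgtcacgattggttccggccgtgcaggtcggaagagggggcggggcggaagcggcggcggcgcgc
GINS2: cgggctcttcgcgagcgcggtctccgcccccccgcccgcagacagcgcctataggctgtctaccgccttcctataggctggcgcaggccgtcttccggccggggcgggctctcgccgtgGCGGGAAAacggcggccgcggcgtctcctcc
POLA1: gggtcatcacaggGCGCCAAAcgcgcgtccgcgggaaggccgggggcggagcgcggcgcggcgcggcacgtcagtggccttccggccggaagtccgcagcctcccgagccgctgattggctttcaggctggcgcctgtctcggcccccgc
PCNA: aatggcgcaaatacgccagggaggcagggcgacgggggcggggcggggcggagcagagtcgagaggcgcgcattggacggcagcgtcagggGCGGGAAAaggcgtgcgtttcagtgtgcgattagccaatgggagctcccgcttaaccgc

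The first comparison set the cell lines against each other. Of the 46 genes, 36 were higher in 786-O and 6 were higher in A498 (limma, Benjamini-Hochberg adjusted p under 0.05 over all 10503 genes tested). Over all tested genes, 42.8% were higher in 786-O and 41.0% were higher in A498, so the lines differed in most genes of any kind. With a log2 difference of at least 0.32 as well, 29 genes were higher in 786-O (32.5% of all tested genes) and 2 were higher in A498 (32.9% of all tested genes). The median log2 difference, 786-O minus A498, was 0.54 over the 46 genes and 0.02 over all genes tested. For 32 genes the 4 libraries of 786-O all lay above the 4 of A498 (39.6% of all tested genes), and for 4 they all lay below (37.7%). The other 10 genes overlapped between the lines. The plot of line differences gives all 46 with their intervals.

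**Figure D2:**
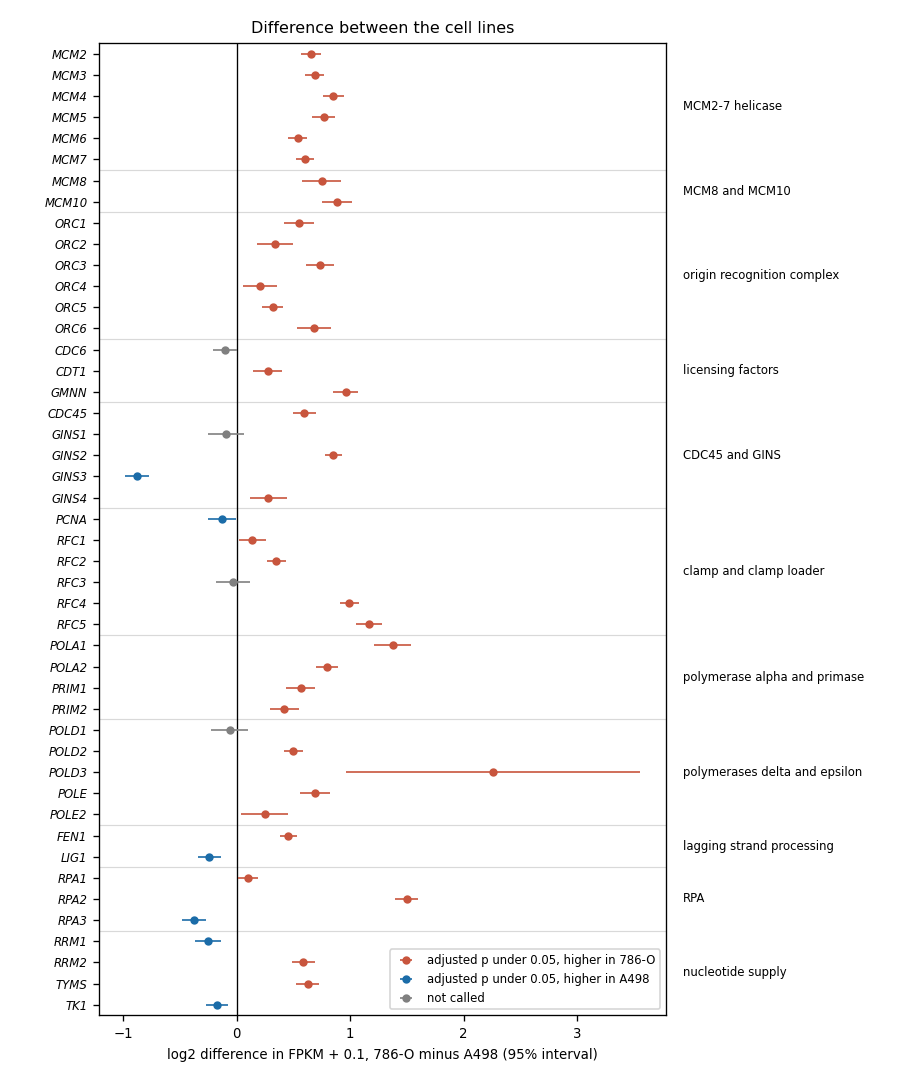
log2 difference in FPKM + 0.1, 786-O minus A498, for the 46 replication genes with 95% limma intervals, grouped by sub-complex. Red genes (36) were called higher in 786-O, blue genes (6) were called higher in A498, grey genes (CDC6, GINS1, RFC3 and POLD1) were not called, and POLD3 has by far the widest interval.

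The MCM2-7 helicase, the ring that unwinds DNA at the fork, was higher in 786-O as a whole. All 6 subunits were called, with log2 differences of 0.54 to 0.85 and a median of 0.67. MCM4 differed most, with 30.5 and 33.6 FPKM in the A498 NTC libraries, 30.0 with siRNA1 and 32.5 with siRNA2, against 59.3 and 57.5 in the 786-O NTC libraries, 52.3 with siRNA1 and 60.0 with siRNA2. The lines did not overlap, and the mean was 1.81-fold higher in 786-O (log2 0.85, SE 0.042, adjusted p = 8.34e-08, limma). MCM6 differed least, with 19.7, 20.4, 19.3 and 20.1 FPKM in A498 and 29.3, 29.3, 28.3 and 28.7 FPKM in 786-O, given here and below in the order NTC 1, NTC 2, siRNA1, siRNA2. The spread within a line was under 1 FPKM (SD 0.486 and 0.523), and the mean was 1.45-fold higher in 786-O. MCM2 stood at 30.9, 30.1, 28.1 and 28.2 FPKM in A498 and at 45.9, 49.1, 43.9 and 46.1 FPKM in 786-O. MCM3 was 1.61-fold higher in 786-O, at 32.8 ± 0.755 against 52.9 ± 2.45 FPKM (SD, n = 4). MCM5 was 1.70-fold higher, at 42.2 ± 2.33 against 71.8 ± 4.52 FPKM. MCM7, 1.52-fold higher, had the highest FPKM of the subunits, at 116 ± 4.63 in A498 and 177 ± 7.90 in 786-O (SD, n = 4). Its level was 5.85 ± 0.290 times that of MCM6 in A498 and 6.11 ± 0.199 times in 786-O. In FPKM, these subunits of the same ring thus differed more from each other than either did between the lines.

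MCM8, which acts in recombination repair, and MCM10, which helps the helicase to start, were both low and both higher in 786-O. MCM8 stood at 2.31, 2.76, 2.42 and 3.07 FPKM in A498 and at 4.66, 4.03, 4.33 and 4.93 FPKM in 786-O (log2 0.75, SE 0.076, adjusted p = 1.35e-05, limma). MCM10 stood at 4.17, 4.63, 4.17 and 4.29 FPKM in A498 and at 8.03, 7.74, 7.67 and 8.75 FPKM in 786-O. Neither gene overlapped between the lines.

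The 6 subunits of the origin recognition complex were all called higher in 786-O, with a median log2 difference of 0.44. ORC3 differed most, at 4.99, 5.35, 5.11 and 6.19 FPKM in A498 and at 8.78, 8.499, 9.33 and 9.56 FPKM in 786-O (log2 0.73, SE 0.054, adjusted p = 1.39e-06, limma). ORC4 differed least, at 3.69, 4.25, 4.04 and 4.23 FPKM in A498 and at 4.58, 4.72, 5.03 and 4.43 FPKM in 786-O. Its lines did not overlap, but the gap between the highest A498 and the lowest 786-O library was smaller than the range within either line (log2 0.21, SE 0.066, adjusted p = 0.0160, limma). The call of ORC4 was lost in 4 of 17 alternatives, with values of 0.13 to 0.23. Among them were those without A498 siRNA1 or without 786-O siRNA1, which give the same line estimate (0.17). ORC1, the large ATP-binding subunit, stood at 5.74, 6.66, 5.26 and 5.93 FPKM in A498 and at 8.68, 8.97, 7.94 and 8.98 FPKM in 786-O. ORC2 was 1.27-fold higher in 786-O, at 5.67 ± 0.526 against 7.18 ± 0.463 FPKM (SD, n = 4). ORC5 was higher by a log2 difference of 0.32 (21.7 ± 1.05 against 27.0 ± 0.767 FPKM), and ORC6 was 1.61-fold higher (19.97 ± 0.897 against 32.2 ± 3.91 FPKM). ORC5 and ORC6 stood well above the other subunits, with ORC5 at 5.36 ± 0.263 times the level of ORC4 in A498 and 5.78 ± 0.435 times in 786-O (SD, n = 4).

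The licensing factors did not move together. Geminin (GMNN), the inhibitor of CDT1, stood at 37.5, 42.8, 35.6 and 46.3 FPKM in A498 and at 76.6, 80.8, 70.8 and 87.0 FPKM in 786-O (log2 0.96, SE 0.048, adjusted p = 9.44e-08, limma). Its lines were far apart, with a mean 1.94-fold higher in 786-O. CDC6, the loading factor, stood at 20.9, 22.7, 20.9 and 22.0 FPKM in A498 and at 21.0, 20.2, 18.2 and 21.2 FPKM in 786-O, so the lines overlapped, and it was not called (log2 -0.10, adjusted p = 0.0615, limma). CDC6 was called in 3 of 17 alternatives, among them that without A498 NTC 1 (log2 -0.13). CDT1 was called higher in 786-O with 25.3, 22.0, 20.2 and 21.7 FPKM in A498 and 26.8, 29.9, 24.5 and 26.9 FPKM in 786-O. One A498 NTC library reached into the range of 786-O (log2 0.28, SE 0.056, adjusted p = 0.00139, limma). The ratio of geminin to CDT1 was 1.48 to 2.13 in the A498 libraries and 2.71 to 3.23 in those of 786-O, with no overlap.

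CDC45 and the GINS subunits held the largest difference in favour of A498. GINS3 stood at 20.5, 20.6, 18.6 and 21.9 FPKM in A498 and at 10.3, 10.8, 10.9 and 12.3 FPKM in 786-O (log2 -0.88, SE 0.047, adjusted p = 1.55e-07, limma). The lowest A498 library was thus above the highest 786-O library, with a mean 1.85-fold higher in A498. GINS2, another subunit of the same complex, differed in the other direction, at 57.1, 59.8, 53.4 and 53.4 FPKM in A498 and 105, 104, 99.1 and 95.3 FPKM in 786-O (log2 0.85, SE 0.033, adjusted p = 1.80e-08, limma). The ratio of GINS2 to GINS3 was 2.44 to 2.90 in A498 and 7.76 to 10.2 in 786-O. GINS1 stood at 11.4, 12.9, 13.7 and 14.2 FPKM in A498 and at 13.1, 11.3, 12.5 and 11.96 FPKM in 786-O, overlapped and was not called (adjusted p = 0.242, limma), except without 786-O NTC 1 (log2 -0.16). CDC45, which joins GINS on the helicase, was 1.52-fold higher in 786-O at 22.0 ± 0.897 against 33.4 ± 2.80 FPKM (SD, n = 4). GINS4 was 1.23-fold higher in 786-O at a low level of 2.19 ± 0.101 against 2.69 ± 0.199 FPKM (SD, n = 4).

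The sliding clamp PCNA, which tethers polymerases to DNA, was nearly equal in the lines while 4 of the 5 subunits of its loader were higher in 786-O. PCNA stood at 174, 197, 177 and 175 FPKM in A498 and at 179, 158, 158 and 166 FPKM in 786-O. The lines overlapped, and the small difference in favour of A498 was just inside the threshold (log2 -0.13, SE 0.053, adjusted p = 0.0473, limma). The call of PCNA was lost in 12 of 17 alternative analyses, including those without the second NTC library of either line (log2 -0.09 each). RFC5 differed most, at 7.54, 8.58, 8.31 and 8.05 FPKM in A498 and at 18.1, 17.8, 18.5 and 19.0 FPKM in 786-O (log2 1.17, SE 0.051, adjusted p = 3.69e-08, limma). Cufflinks marked its estimate as failed in 3 of the 8 libraries and divided its reads among 4 entries in changing shares, while the summed level had an SD of 0.442 FPKM in A498 and 0.528 FPKM in 786-O. RFC3 was not called, at 13.2, 15.4, 14.8 and 16.0 FPKM in A498 and at 15.1, 14.2, 14.7 and 13.8 FPKM in 786-O (adjusted p = 0.654, limma). RFC4 was 1.99-fold higher in 786-O, at 29.5 ± 1.18 against 58.8 ± 2.19 FPKM (SD, n = 4). In A498 NTC 2 its main entry, at 30.1 FPKM, had a wide Cufflinks interval of 0.963 to 59.3 FPKM. RFC2 was 1.27-fold higher in 786-O, at 44.4 ± 1.32 against 56.5 ± 2.15 FPKM. RFC1, the large subunit, was 1.10-fold higher with overlap between the lines, at 11.1 ± 0.664 against 12.2 ± 0.485 FPKM, and its call was lost in 10 of 17 alternatives. The ratio of RFC4 to RFC1 was 2.67 ± 0.134 in A498 and 4.83 ± 0.134 in 786-O (SD, n = 4).

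Polymerase alpha and primase, which make the RNA-DNA primers, were higher in 786-O in all 4 subunits, with a median log2 difference of 0.68. POLA1, the catalytic subunit of polymerase alpha, stood at 1.28, 1.48, 1.58 and 1.53 FPKM in A498 and at 4.02, 3.89, 4.02 and 3.92 FPKM in 786-O (log2 1.37, SE 0.070, adjusted p = 1.11e-07, limma). Its mean was 2.69-fold higher in 786-O, and the gap between the lines exceeded the range within either. PRIM2, the large primase subunit, differed least, at 5.66, 6.47, 6.86 and 6.94 FPKM in A498 and at 8.41, 8.08, 8.64 and 9.62 FPKM in 786-O. POLA2, the second subunit of polymerase alpha, was 1.74-fold higher in 786-O at 13.3 ± 0.6001 against 23.2 ± 0.980 FPKM (SD, n = 4), and PRIM1, the catalytic primase subunit, was 1.49-fold higher at 7.29 ± 0.663 against 10.8 ± 0.961 FPKM. An entry with an Ensembl identifier overlaps PRIM2, and both entries together gave 8.46 to 10.8 FPKM in A498 and 12.9 to 14.5 FPKM in 786-O.

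Among the polymerases that extend the strands, POLD2, POLD3, POLE and POLE2 were called higher in 786-O and POLD1 was not called. POLD1, the catalytic subunit of polymerase delta, stood at 15.9, 13.2, 13.1 and 12.6 FPKM in A498 and at 12.9, 14.7, 11.8 and 13.0 FPKM in 786-O, with full overlap (adjusted p = 0.428, limma). POLD2, its small subunit, stood at 116, 108, 109.9 and 101 FPKM in A498 and at 152, 162, 156 and 144 FPKM in 786-O, without overlap. The ratio of POLD2 to POLD1 was 7.30 to 8.42 in A498 and 11.04 to 13.2 in 786-O. POLE, the catalytic subunit of polymerase epsilon, was 1.63-fold higher in 786-O at 4.56 ± 0.321 against 7.42 ± 0.190 FPKM (SD, n = 4). POLE2 was 1.20-fold higher with overlap between the lines (2.18 ± 0.151 against 2.62 ± 0.340 FPKM, adjusted p = 0.0310, limma). Its call was lost in 6 of 17 alternatives, among them those without any 1 of the 4 siRNA libraries. Leaving out an siRNA in either line gives the same line estimate, so these 4 are not separate checks.

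POLD3 had the largest log2 difference of all 46 genes and the least certain one. Its coding entry stood at 0.734, 1.59, 9.34e-06 and 0.0678 FPKM in A498 and at 2.04, 1.66, 1.49 and 1.98 FPKM in 786-O (log2 2.26, SE 0.569, adjusted p = 0.00489, limma). A non-coding RefSeq entry lies at the same locus, at 2.01, 1.58, 2.76 and 2.42 FPKM in A498 and at 4.35, 4.58, 4.88 and 5.17 FPKM in 786-O. The sum of both entries was 2.74, 3.16, 2.76 and 2.49 FPKM in A498 and 6.39, 6.24, 6.37 and 7.16 FPKM in 786-O. On the sum the lines did not overlap, and the A498 siRNA libraries lay at or near the range of the A498 NTC libraries. The stacked bars show how the entries share the locus.

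**Figure D3:**
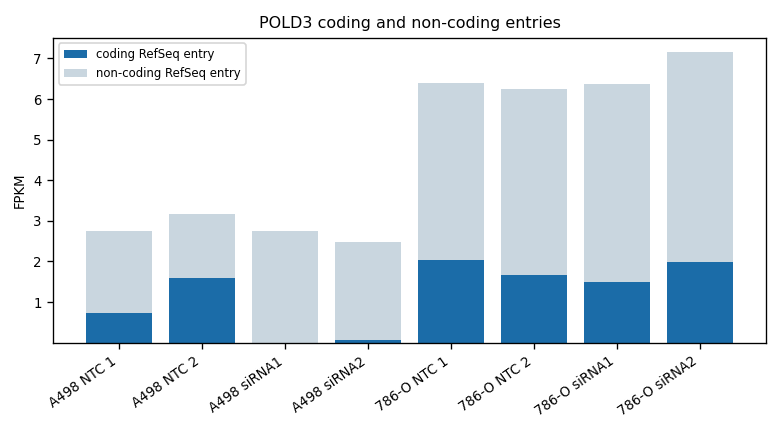
FPKM of the coding (dark) and non-coding (light) RefSeq entries at POLD3, stacked, in the 8 libraries. The coding share falls to nearly nothing in both A498 siRNA libraries, while the total stays between 2.49 and 3.16 FPKM in A498 and between 6.24 and 7.16 FPKM in 786-O.

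The 2 enzymes that finish Okazaki fragments differed in opposite directions. FEN1, the flap endonuclease, stood at 42.3, 43.7, 40.4 and 41.3 FPKM in A498 and at 57.3, 59.2, 56.2 and 57.4 FPKM in 786-O (log2 0.46, SE 0.034, adjusted p = 1.55e-06, limma). LIG1, the ligase that seals the nick, stood at 17.4, 15.8, 15.6 and 15.8 FPKM in A498 and at 14.3, 14.2, 12.7 and 13.4 FPKM in 786-O (log2 -0.24, SE 0.045, adjusted p = 0.000794, limma). Neither gene overlapped between the lines.

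The 3 subunits of RPA, the trimer that coats single-stranded DNA, showed 3 different patterns. RPA2 stood at 20.2, 22.7, 21.0 and 21.7 FPKM in A498 and at 59.9, 60.5, 59.9 and 61.7 FPKM in 786-O (log2 1.497, SE 0.043, adjusted p = 2.60e-09, limma). It was 2.83-fold higher in 786-O. RPA1 was almost level, at 23.4, 24.4, 24.4 and 23.8 FPKM in A498 and at 25.04, 24.9, 26.5 and 26.5 FPKM in 786-O (log2 0.10, SE 0.038, adjusted p = 0.0366, limma). The lines of RPA1 did not overlap, but its call was lost in 11 of 17 alternatives. RPA3 was 1.30-fold higher in A498, at 49.6 ± 2.10 against 38.2 ± 1.72 FPKM (SD, n = 4). The ratio of RPA2 to RPA1 was therefore 0.890 ± 0.0345 in A498 and 2.35 ± 0.0745 in 786-O, and that of RPA3 to RPA1 was 2.06 ± 0.0664 in A498 and 1.49 ± 0.117 in 786-O.

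Genes of nucleotide supply were split. TYMS, which makes thymidylate, stood at 100.5, 114, 103 and 105 FPKM in A498 and at 166, 167, 154 and 167 FPKM in 786-O (log2 0.63, SE 0.045, adjusted p = 1.07e-06, limma). TK1, which salvages thymidine, stood at 236, 216, 209 and 211 FPKM in A498 and at 194, 211, 183 and 186 FPKM in 786-O, with a small overlap (log2 -0.17, SE 0.042, adjusted p = 0.00400, limma). Both enzymes make thymidylate, and the higher line differed between them. RRM2, the regulated subunit of ribonucleotide reductase, stood at 46.5, 52.0, 49.7 and 52.6 FPKM in A498 and at 72.0, 73.8, 72.6 and 83.2 FPKM in 786-O, and Cufflinks marked its main entry as low data in all 8 libraries. RRM1, the large subunit, was 1.19-fold higher in A498 at 48.2 ± 2.89 against 40.4 ± 1.65 FPKM (SD, n = 4). The ratio of RRM2 to RRM1 was 1.0198 to 1.0497 in A498 and 1.70 to 2.02 in 786-O.

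Related genes outside the 46 were read for comparison. Of 33 other replication genes, 32 had a value and 31 were tested, of which 21 were higher in 786-O and 6 higher in A498, with a median log2 difference of 0.44. The largest differences ran towards A498, in RRM2B, the p53-induced subunit of ribonucleotide reductase (22.9 ± 1.99 against 6.47 ± 0.747 FPKM), and in POLE4, a small subunit of polymerase epsilon (191 ± 2.09 against 67.0 ± 2.26 FPKM). Of 16 tested E2F and cyclin E-CDK2 genes, 10 were higher in 786-O and 1 higher in A498, led by RBL1 with a log2 difference of 1.33 and CCNE2 with 1.246. Of 25 G2/M genes, 22 were higher in 786-O and 1 higher in A498, led by KIF20A with 1.19 and CDC20 with 1.04. The direction seen in the replication genes was therefore also that of genes of the G2/M phase, whose median was 0.50. Of the 8 tested kidney cancer cell markers, 3 were higher in 786-O and 5 higher in A498, led by CDH2 with 0.85 and KRT18 with -0.56. Of 5 fibroblast markers only COL1A1 passed the minimum level, and it did so through A498, at 3.19 ± 0.253 against 0.236 ± 0.0374 FPKM (SD, n = 4). LUM, at 0 to 0.0208 FPKM in A498 and 0.493 to 0.677 FPKM in 786-O, and PDGFRB, at 0.0273 to 0.0359 and 0.0694 to 0.0899 FPKM, lay the other way. DCN was at most 0.0733 FPKM, and COL3A1 was listed at 0 in all 8 libraries. The part of other cell types in these differences was not tested.

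The second comparison asked whether knockdown of SLINKY moved the replication genes. With siRNA1, 0 of the 46 genes were called (limma, adjusted p under 0.05) against 0.343% of all tested genes. At an unadjusted p under 0.05 there were 10 genes, against 10.6% of all tested genes in either direction. All 10 were below NTC, but the share of all tested genes by direction was not computed. The 10 were MCM2, MCM4, ORC1, CDT1, GMNN, CDC45, GINS2, POLD3 (on its coding entry), LIG1 and TK1. The lowest adjusted p, of CDC45, was 0.304 (limma). The median log2 difference was -0.06 over the 46 genes and 0.01 over all tested genes, and 35 of the 46 values were below 0 (45.4% of all tested genes). Apart from POLD3, the log2 differences lay between -0.21 for CDT1 and 0.12 for PRIM2.

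With siRNA2, 0 of the 46 genes were called against 0.0286% of all tested genes. At an unadjusted p under 0.05 there were again 10 genes (13.5% of all tested genes), of which MCM7, GINS2 and POLD2 were below NTC and MCM8, ORC3, GMNN, GINS3, PRIM1, PRIM2 and RRM2 above. The lowest adjusted p was 0.304, of GINS2. The median log2 difference was 0.02 over the 46 genes (-0.00503 without A498 NTC 1 and 0.0407 without A498 NTC 2), and 21 of the values were below 0 (44.8% of all tested genes). Apart from POLD3, the differences lay between -0.15 for POLD1 and 0.23 for MCM8. For the mean of both siRNAs, 0 genes were called (0.0571% of all tested genes) and 12 had an unadjusted p under 0.05 (13.2%). The siRNA contrasts share their NTC libraries. The plot of siRNA differences shows both with their intervals.

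**Figure D4:**
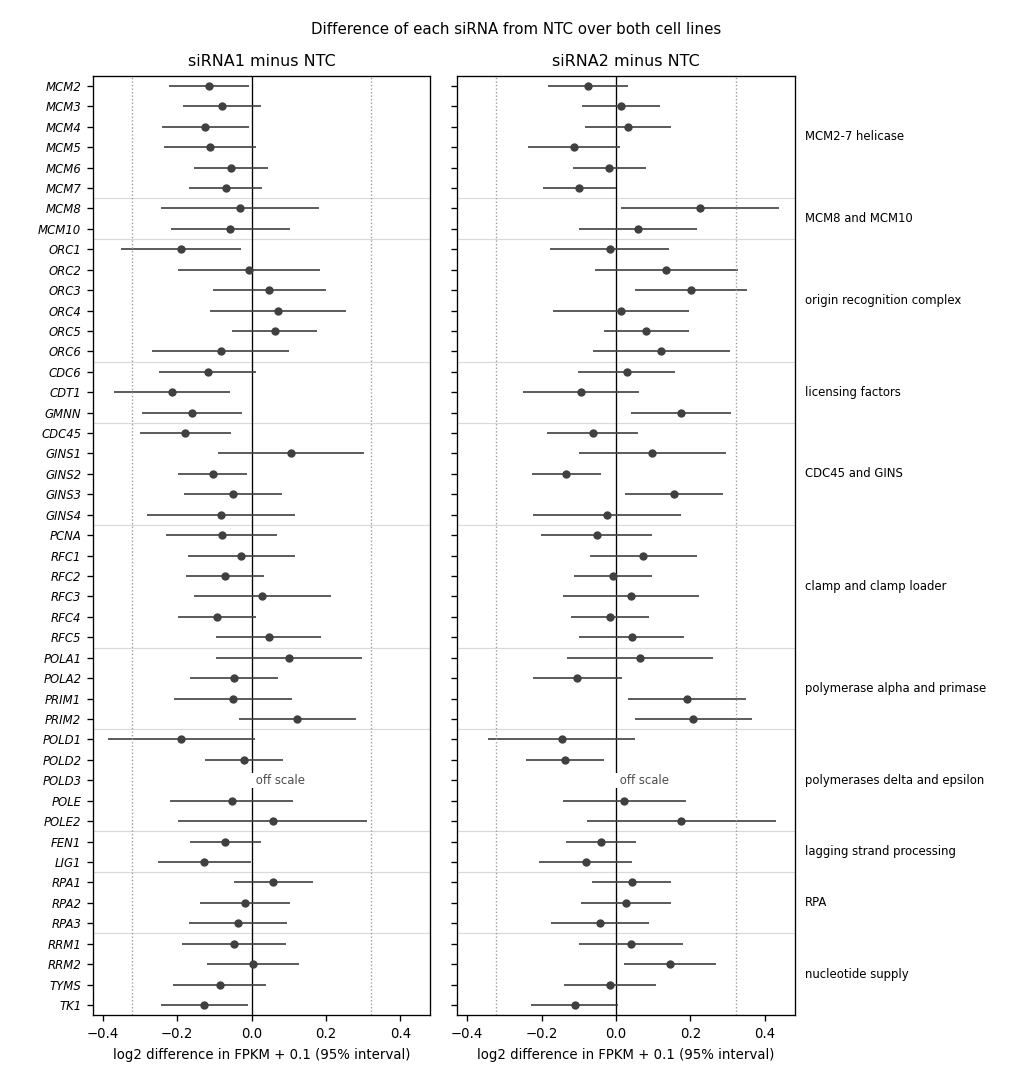
log2 difference in FPKM + 0.1 of siRNA1 (left) and siRNA2 (right) from NTC over both cell lines, with 95% limma intervals and dotted lines at a log2 difference of 0.32. The values are small, more of them lie left of 0 with siRNA1 (35 of 46) than with siRNA2 (21 of 46), and POLD3 (-1.93 and -1.36) is off the scale.

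The intervals bound what these libraries could show. Without POLD3, the 95% intervals of all 45 genes lay within a log2 difference of 0.5 on either side of 0 for each siRNA, and those of 42 genes with siRNA1 and 38 with siRNA2 lay within 0.32. In single siRNA libraries set against the NTC mean in the same line, POLD3 was the only gene past a log2 difference of 0.32, with siRNA1 in A498 (3.81% of all tested genes) and with siRNA2 in A498 (5.49%). No gene was past it in 786-O with siRNA1 (5.91%) or with siRNA2 (3.92%). Between the NTC libraries themselves, POLD3 was past it in A498 (4.67% of all tested genes) and no gene was in 786-O (4.63%). The median difference between the NTC libraries over the 46 genes was 9.71% in A498 and 4.15% in 786-O.

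Some genes nevertheless kept both siRNA libraries on the same side of both NTC libraries. In A498, 14 genes lay below (16.7% of all tested genes) and 4 above (20.7%). POLD3 was among those below on its coding entry, but not on the sum of its coding and non-coding entries. In 786-O, 10 lay below (13.8%) and 7 above (19.0%). MCM5, MCM7, CDC45, GINS2, LIG1 and TK1 lay below in both lines, 6 of 46 genes against 4.97% of all tested genes. PRIM2 alone lay above in both (6.75% of all tested genes), on its coding entry. With the overlapping Ensembl entry added, PRIM2 stood at 14.5 and 13.5 FPKM with NTC in 786-O, against 12.9 with siRNA1 and 13.8 with siRNA2. On that sum PRIM2 lay above both NTC libraries with both siRNAs in A498 only. GINS2 changed from 57.1 and 59.8 FPKM with NTC to 53.4 with each siRNA in A498, and from 105 and 104 to 99.1 and 95.3 in 786-O. CDC45 stood at 22.0 and 23.2 FPKM with NTC, 21.0 with siRNA1 and 21.8 with siRNA2 in A498, and at 34.3 and 36.3 against 29.6 and 33.4 in 786-O. None of these genes passed the adjusted threshold.

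By function, the medians of the sub-complexes differed little from NTC in either direction. With siRNA1 the licensing factors had the lowest median, at a log2 difference of -0.16, followed by lagging strand processing at -0.10 and the MCM2-7 helicase at -0.10, while polymerase alpha and primase stood at 0.03. CDT1 was at -0.21 (SE 0.068) with siRNA1 and ORC1 at -0.19. With siRNA2 the highest median was that of MCM8 and MCM10 at 0.14. Polymerase alpha and primase followed at 0.13 and the origin recognition complex at 0.10. The lowest was that of polymerases delta and epsilon at -0.14, a place that depends on the coding entry of POLD3 (-1.36). With non-coding entries added, POLD3 was at 0.0598 for siRNA2. On its coding entry, PRIM2 was at 0.12 with siRNA1 and 0.21 with siRNA2. It was the highest gene with siRNA1 and the next after MCM8 with siRNA2. The siRNA1 value of PRIM2 ranged from 0.063 without A498 siRNA1 to 0.18 without 786-O siRNA1. PCNA was at -0.08 with siRNA1 and -0.05 with siRNA2, and CDC6 was at -0.12 and 0.03.

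The siRNAs were then compared directly, a difference that uses no control library, although the spread behind its p-values comes from all 8. In the fit over both lines, 0 of the 46 genes were called (0.371% of all tested genes) and 5 had an unadjusted p under 0.05, namely MCM4, MCM8, GMNN, GINS3 and PRIM1 (9.33% of all tested genes). Geminin came closest, with a log2 difference, siRNA1 minus siRNA2, of -0.34 (95% interval -0.49 to -0.18, adjusted p = 0.107, limma). The difference was below 0 in 35 of the 46 genes (48.5% of all tested genes). Taken line by line, siRNA1 was below siRNA2 in 35 genes in A498 (52.0% of all tested genes) and in 36 genes in 786-O (45.9%), and in 29 genes in both lines (28.0% of all tested genes). These differences share no library between the lines. In geminin, siRNA1 was 23.0% below siRNA2 in A498 and 18.6% below in 786-O. These are sums over 4 coding entries. The main entry held 48.1% of the sum with siRNA1 and 75.4% with siRNA2 in A498, and 57.7% and 57.8% in 786-O.

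Other genes with the same sign in both lines were MCM8 (21.0% and 12.3% below), PRIM1 (16.4% and 14.8% below), GINS3 (15.1% and 11.5% below) and ORC1 (11.4% and 11.5% below). POLD2 was the clearest gene in the other direction, with siRNA1 above siRNA2 by 8.90% in A498 and 8.14% in 786-O. Across the 45 genes without POLD3 the differences in the 2 lines had a Pearson correlation of 0.37, and across all tested genes of 0.17. This is a description across genes, whose points share 4 libraries. The shallowest library, A498 with siRNA2, enters this comparison in A498 only. Of the 25 G2/M genes, 20 also had a negative siRNA1 minus siRNA2 value, and of the 16 E2F and cyclin E-CDK2 genes 10 did.

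**Figure D5:**
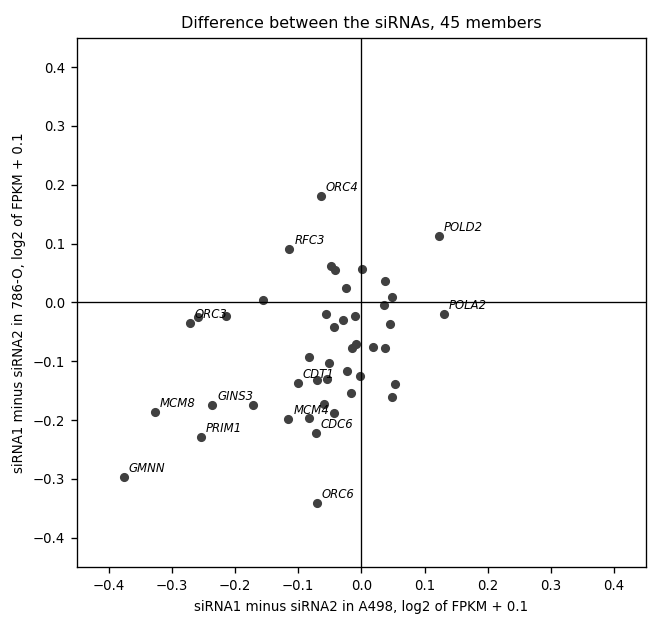
log2 difference, siRNA1 minus siRNA2, in A498 (horizontal) and in 786-O (vertical) for the 45 replication genes without POLD3, each point a gene in 1 library of each siRNA and line. Most points lie in the lower left part, GMNN lies farthest along it, and POLD2 lies in the upper right.

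The last comparison asked whether the knockdown acted differently in the lines. In the interaction of knockdown and cell line, 0 of the 46 genes were called (0.00952% of all tested genes), and 2 genes, POLD3 and POLE2, had an unadjusted p under 0.05 (1.82% of all tested genes). The lowest adjusted p was that of POLD3 at 0.944, whose coding entry is the one that shares its locus. No gene lay below both NTC libraries with both siRNAs in 1 line and above in the other. No share of all tested genes stands beside this count, so nothing is read from it.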

How the data were processed

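RNA-seq of 8 libraries was analysed. Reads of 36 bases were aligned by the authors against hg19, and the deposited tables hold FPKM with 95% intervals, estimated for each library on its own. The submitters' processing notes name TopHat2 2.0.0 and Cufflinks 2.0.2. Overlapping entries share reads by estimation, so a value depends on the annotation.

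Coding RefSeq entries were named from a GRCh38 RefSeq table used for names and promoter sequence (97.7% of 35951 matched) and FPKM was summed per symbol. The 10503 genes with a mean of at least 1 FPKM were tested on log2(FPKM + 0.1) with limma 3.58.1 in R 4.3.3, with a trend of variance on mean and Benjamini-Hochberg adjustment over all of them at 0.05. The added 0.1 makes log2 differences understate changes of low genes, while folds between the lines are plain ratios of mean FPKM. The model held cell line and treatment (NTC, siRNA1, siRNA2), and a second fit of the 4 line by knockdown means gave the interaction. The steps were tested on simulated data. Group means and SDs use all 4 libraries of a line. Python 3.11.15, numpy 2.4.6, pandas 2.3.3, scipy 1.17.1 and matplotlib 3.10.9 served the rest.

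The files give no read counts. Entries with the interval of 1 read gave relative depth only, and intervals cover counting error at most. The members and lists were chosen with earlier results of these data known. All 46 genes were to be named, with every library given for the largest and smallest line difference of each sub-complex, the 3 lowest and highest genes with each siRNA, any gene called with siRNA, and PCNA, RRM2, CDC6 and MCM2. Values of GINS2 and CDC45 in every library were added after they were seen, as were the subunit ratios. From each comparison list the 2 largest line differences are given. Alternatives were other pseudocounts, no filter, median-ratio scaling, the highest entry per gene, non-coding entries added, NTC libraries only, a replicate block and leaving out each library.

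The replicate block put NTC 1 with siRNA1 and NTC 2 with siRNA2, although the number of an siRNA names the reagent and no replicate. Over all tested genes, deviations of NTC 1 in A498 and 786-O correlated at -0.256, and NTC 1 minus NTC 2 correlated with siRNA1 minus siRNA2 at 0.254 in A498 and at -0.0312 in 786-O. The numbers were not taken as pairs.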

Additional observations from a re-analysis of the deposited data

How the results depend on the processing

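Between the cell lines, 37 to 41 genes were called in either direction when each library was left out (42 in all libraries). The count was 35 with NTC libraries only and 40 with the replicate block. Of all 10503 genes tested, 8433 to 8749 were called when each library was left out (8798 in all libraries). With NTC libraries only 7918 of all tested genes were called, and with the replicate block 8673. The call of 34 of the 46 genes was the same in all 17 alternatives, and those of PCNA, RPA1 and RFC1 were lost in 12, 11 and 10, while CDC6 was called in 3 and GINS1 in 1. The median line difference moved to 0.505 with a pseudocount of 1 and to 0.457 with the highest entry per gene. GINS1 turned to 0.000369 and RFC3 to 0.0444 with NTC libraries only. RFC3 ranged from -0.0924 to 0.0273 when 1 library was left out, turning without the siRNA2 library of either line. For the line difference, leaving out the siRNA1 library of A498 or of 786-O gives the same estimate, and so it is with siRNA2. These alternatives are therefore not separate checks, though each is counted among the 17.

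For the siRNA contrasts and the interaction, the count of called genes was 0 in every alternative except a crossed replicate block. That block had the 786-O NTC numbers crossed and was chosen after seeing the data. In it CDT1 was called with siRNA1 (1 gene, and 41 of all tested genes). POLD3 was called in the interaction (1 gene, and 2 of all tested genes). In the crossed block the median was -0.0178 for siRNA2 and -0.0259 for siRNA1 minus siRNA2, POLD3 was 0.0796 and PRIM2 0.0388 for siRNA1 minus siRNA2, and MCM8 was 0.0828 for siRNA1. With the highest entry per gene, the median for both siRNAs was -0.00124, CDC45 was 0.0469 for siRNA2 and MCM8 0.209 for siRNA1. POLD3 was 0.0598 for siRNA2 with non-coding entries added. When 1 library was left out, the interaction median ran from -0.0300 to 0.0552, POLD3 for siRNA1 minus siRNA2 from -1.72 to 0.58 (turning without A498 siRNA1 or 786-O siRNA2), and MCM8 for siRNA1 from -0.0819 to 0.0183. Over all genes, the 36 calls with siRNA1 ranged from 2 to 57 over the alternatives, and the 39 between the siRNAs from 0 to 52, with 5 without 786-O NTC 2 and 24 without A498 NTC 2.

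Past a log2 difference of 0.32 in a single library, the counts with the highest entry per gene were 3 and 5 in A498 and 2 and 5 in 786-O for siRNA1 and siRNA2. With non-coding entries added both A498 counts were 0. The replicate block gave 2 for siRNA1 in 786-O, and a pseudocount of 0.01 gave 1 for siRNA2 in 786-O. Leaving out 1 library gave 1 to 2 genes for siRNA1 and 1 to 3 for siRNA2 in A498, and 0 to 2 for either in 786-O. These were ORC1 without A498 NTC 1, MCM8 and POLD1 without A498 NTC 2, and POLD3, POLE2 and ORC6 without 786-O NTC 2. No share of all tested genes stands beside these counts, and the cause of these changes was not tested.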

Other observations

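The replication genes were set beside their chromosomal neighbours, the tested genes whose loci start within 2 Mb in the files' hg19 coordinates (4 to 96 neighbours a gene). The median log2 difference, 786-O minus A498, of the neighbours had a median of 0.09 over the 46 genes. Of the 46 genes, 40 lay above the median of their own neighbours. The share of all tested genes above their neighbours was not computed, so nothing is read from this count. GMNN stood at 0.96 where its 26 neighbours had a median of -0.63, and POLA1 at 1.37 where its 7 neighbours had -0.07. RPA2 at 1.497 and TYMS at 0.63 lay among neighbours that were higher in 786-O as well, with medians of 0.76 and 0.77. GINS3 at -0.88 lay among neighbours with a median of 0.12. Across the 46 genes the Spearman correlation of the gene with its neighbours was 0.50, a description whose points share the 8 libraries and in part the same neighbours.

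Some genes changed which coding entry Cufflinks gave the reads to. For ORC1 one entry held 33.9% to 99.3% of the level in the A498 libraries and 0.00620% to 52.4% in 786-O, and another held 0.0248% to 65.9% and 47.3% to 99.99%. For MCM8 the main entry held 57.0% to 99.995% in A498. The sums over entries, used in all comparisons, varied far less. The median line difference was 0.62 over the 20 genes with an E2F word in their promoter window. It was 0.44 over the 20 genes with a window and no word. For the word CCAAT it was 0.59 over the 25 genes with the word and 0.32 over the 15 without it. Some genes hold both words, GMNN and POLA1 among them, so these splits are not separate. Neither split was tested.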
